A study of Mus musculus with 24 samples.

Results

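The sodium pump subunits described here are 6 genes, Atp1b1 and Atp1b3 of the beta family and Fxyd2, Fxyd3, Fxyd4 and Fxyd5 of the FXYD family. They were taken by symbol, through the GENCODE M21 annotation of Ensembl identifiers, from a table of 54432 genes. RNA was sequenced from mpkCCD, a C57BL/6 mouse line derived from the cortical collecting duct and labelled wild type, at passage 10 to 11. All cells had grown on permeable filters for 6 days and then spent 24 h in minimal medium. One arm then received dDAVP, a synthetic vasopressin analogue, on the basolateral side at a dose the labels write as 0.1 M, and the other received vehicle, for 3, 6, 12 or 24 h. The design gives 8 groups of 3 libraries. Nothing in the labels says whether the 3 came from separate cultures, and the p-values therefore describe a spread among libraries that may be technical.

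The sodium pump (Na,K-ATPase) of the basolateral membrane exports sodium that enters collecting duct cells through apical channels. Its catalytic alpha subunit needs a glycosylated beta subunit to fold, leave the endoplasmic reticulum and reach the membrane, and small single-span FXYD proteins bind the pair and tune its affinity for ions and its turnover. Vasopressin acts on the V2 receptor of principal cells, raises cAMP and promotes water and sodium reabsorption, so the comparison asks which subunit transcripts differ between dDAVP and vehicle and how they move with time.

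Atp1b1 (ENSMUSG00000026576) lies at chr1:164437109-164458355 on the minus strand of GRCm38, and Atp1b3 (ENSMUSG00000032412) at chr9:96332655-96364442 on the minus strand. Fxyd2 (ENSMUSG00000059412) is at chr9:45399669-45410278 on the plus strand, 3509 bases from Fxyd6. Fxyd4 (ENSMUSG00000004988) is at chr6:117933559-117937692 on the minus strand. Fxyd5 (ENSMUSG00000009687, chr7:31032722-31042481) and Fxyd3 (ENSMUSG00000057092, chr7:31068172-31076704) share the minus strand of a 44.0 kb stretch that holds 4 FXYD genes, and 31 bases separate Fxyd5 from Fxyd7.

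RefSeq promoter windows (GRCm38.p6, 250 bases before to 50 after the annotated start, 300 in all) were found for 5 of the 6 genes; Fxyd2 has no entry. The windows of both beta genes are shown because their ratio moved with dDAVP, and that of Fxyd5 because its level moved with time; capitals mark a match to TGACG, the short form of the cAMP response element, on either strand.
Atp1b1 (chr1:164458306-164458605, minus strand): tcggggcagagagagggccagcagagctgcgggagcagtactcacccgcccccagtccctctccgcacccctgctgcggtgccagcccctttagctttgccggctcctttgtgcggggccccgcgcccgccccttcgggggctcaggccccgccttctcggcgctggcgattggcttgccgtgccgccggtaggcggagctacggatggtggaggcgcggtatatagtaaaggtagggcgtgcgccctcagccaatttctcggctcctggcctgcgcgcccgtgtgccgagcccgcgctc
Atp1b3 (chr9:96364382-96364681, minus strand): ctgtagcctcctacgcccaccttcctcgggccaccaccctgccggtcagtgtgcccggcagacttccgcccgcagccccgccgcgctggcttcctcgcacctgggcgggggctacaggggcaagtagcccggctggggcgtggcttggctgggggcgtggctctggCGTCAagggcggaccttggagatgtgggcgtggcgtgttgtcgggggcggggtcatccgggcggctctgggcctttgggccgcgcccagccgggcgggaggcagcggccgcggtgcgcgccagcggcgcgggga
Fxyd5 (chr7:31042282-31042581, minus strand): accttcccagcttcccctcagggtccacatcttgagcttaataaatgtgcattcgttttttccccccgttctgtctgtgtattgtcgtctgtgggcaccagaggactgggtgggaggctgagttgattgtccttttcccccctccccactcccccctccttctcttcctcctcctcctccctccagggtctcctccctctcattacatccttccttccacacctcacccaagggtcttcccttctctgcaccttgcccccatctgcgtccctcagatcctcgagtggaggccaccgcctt
The match in this Atp1b3 window, CGTCA on the printed strand, lies within the 250 bases before the start, and the gene's second window holds 1 match too. No match to TGACG, to the full element TGACGTCA, which contains it, or to the short steroid receptor motif AGAACA was found in the Atp1b1, Fxyd3, Fxyd4 and Fxyd5 windows. Of 32851 mouse promoter windows, 20.8% held TGACG, 1.79% held TGACGTCA and 19.0% held AGAACA. The beta windows were rich in G and C, 71.0% in Atp1b1 and 76.0% and 74.7% in Atp1b3, against 58.7% in Fxyd4, 57.3% in Fxyd5, 55.0% in Fxyd3 and a median of 52.7% over all windows.

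The libraries held 17.25 to 27.64 M estimated counts each, and 29743 genes, all 6 subunits among them, passed the filter on low counts. Aqp2, the vasopressin-regulated water channel, averaged 94.6 ± 7.41 TPM in dDAVP and 2.46 ± 0.698 TPM in vehicle at 24 h (SD, n = 3 each). TPM is the authors' deposited level, scaled by transcript length and to a common total in every library. Of the fixed principal cell markers, Gata3, Avpr2, Scnn1a and Hsd11b2 were measured at 48.5, 16.2, 12.6 and 6.11 TPM on average, whereas Kcnj1, Aqp4 and Scnn1b were at 0.17, 0.256 and 0.366 TPM. Olfactory and vomeronasal receptor genes, taken as silent in this epithelium, held 0.131% to 0.494% of the counts in dDAVP libraries and 0.172% to 0.874% in vehicle libraries. At 6 h this receptor share did not overlap, at 0.131% to 0.268% in dDAVP against 0.43% to 0.564% in vehicle. Nor did it overlap between 24 h and 3 h in either arm. In vehicle it was 0.175% to 0.292% at 24 h against 0.379% to 0.874% at 3 h. In dDAVP it was 0.148% to 0.233% at 24 h against 0.266% to 0.494% at 3 h. In these contrasts receptor share and the groups compared cannot be fully told apart, even share-adjusted. Share-adjusted fits, in which the log2 receptor share was a covariate, therefore stand beside unadjusted ones. Unadjusted, the median log2 fold change of the 11836 genes averaging 5 CPM (depth-scaled counts) or more was 0.19, 0.33, 0.08 and 0.01 at 3, 6, 12 and 24 h, 0.15 for the mean dDAVP effect, and 0.22 for 24 h over 3 h across treatments. Share-adjusted, these medians lay between -0.02 and 0.04, so a subunit's log2 change is read against them.

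Atp1b1 was the most abundant of the 6 transcripts and Fxyd3 the least. Over the 24 libraries Atp1b1 averaged 71.8 TPM (59.4 to 88.9), Fxyd2 49.5 (36.3 to 67.7), Atp1b3 44.1 (34.8 to 53.2), Fxyd4 24.1 (15.7 to 37.8), Fxyd5 6.26 (3.56 to 9.23) and Fxyd3 1.95 (1.08 to 3.32). Atp1b1 exceeded Fxyd2, Atp1b3 exceeded Fxyd4, Fxyd4 exceeded Fxyd5 and Fxyd5 exceeded Fxyd3 in 24 of 24 libraries. Fxyd2 and Atp1b3 changed places, with Fxyd2 the higher in 13 of 24. The other beta and FXYD genes on a fixed list were low, with Atp1b2 at 0.346, Atp1b4 at 0.0349, Fxyd1 at 0.421, Fxyd6 at 0.58 and Fxyd7 at 0.0921 TPM on average. Fxyd3 rested on 15 to 45 counts a library, so its fold changes are the least precise of the 6.

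**Figure D1:**
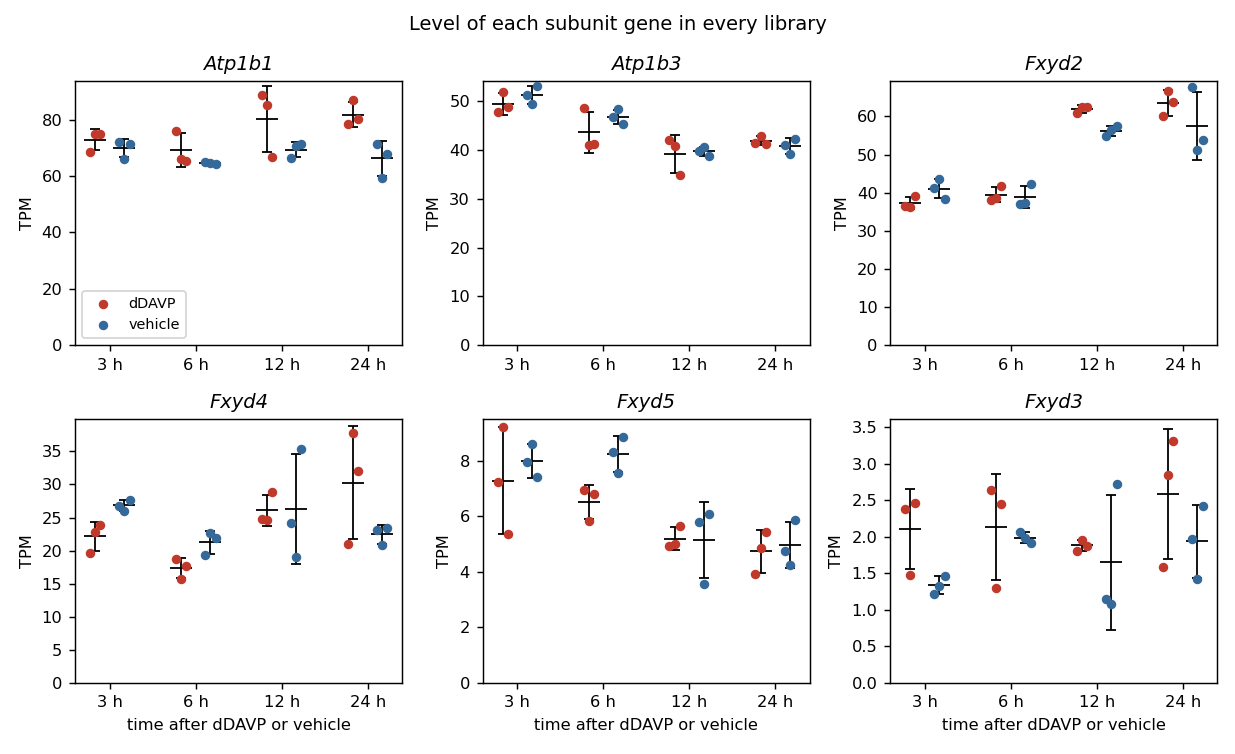
TPM of the 6 subunit genes (vertical axes from 0) in each library at 3, 6, 12 and 24 h, dDAVP red and vehicle blue, with a point per library and the mean ± SD of 3. Atp1b1 at 24 h is separated by treatment (78.3 to 86.9 TPM in dDAVP, 59.4 to 71.5 TPM in vehicle), whereas Fxyd2 and Fxyd5 differ more by time.

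Atp1b1, the beta subunit that predominates in kidney, was higher with dDAVP. At 24 h it stood at 78.3, 86.9 and 80.1 TPM in dDAVP and 71.5, 59.4 and 68.0 TPM in vehicle. At 6 h it stood at 76.1, 65.9 and 65.4 TPM in dDAVP and 64.9, 64.7 and 64.2 TPM in vehicle. All dDAVP libraries exceeded all vehicle libraries at these times. At 12 h the libraries overlapped, with 88.9, 85.1 and 66.8 TPM in dDAVP against 66.3, 70.5 and 71.2 TPM in vehicle. They also overlapped at 3 h, at 68.5, 74.9 and 75.1 TPM in dDAVP and 72.1, 66.1 and 71.4 TPM in vehicle. On the CPM scale 2 of 4 times were also free of overlap. How many of all genes were free of overlap was not counted, so non-overlap of a single gene is description only. For Atp1b1 at 6 h, limma on log2(TPM + 1) gave 0.09 (adjusted p = 0.367). The mean effect over the 4 times was a log2 fold change of 0.41 ± 0.07 (SE, 1.33-fold), with an adjusted p of 0.000484 by edgeR's quasi-likelihood test and Benjamini-Hochberg adjustment over all genes tested. Share-adjusted, it was 0.25 ± 0.04, adjusted p = 0.00143, against a median of 0.02 for genes of 5 CPM or more.

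Over the 4 times together 3 of the 6 genes were called, all of them higher, where 33.1% of all genes tested were called. In the share-adjusted fit 1 of the 6, Atp1b1, was called, where 1.23% of all genes were. The median log2 effect of the 6 was 0.25, against -0.2 over all genes tested and 0.15 over genes of 5 CPM or more. Atp1b3, a second widely expressed beta subunit, had a mean effect of 0.22 ± 0.07 (adjusted p = 0.0243) unadjusted and 0.04 ± 0.04 (adjusted p = 0.84) share-adjusted. In limma on log2(TPM + 1) the effect for Atp1b3 was -0.04, so its direction depended on the scaling. The Atp1b3 call was also lost, at 0.18 to 0.20, without vehicle 3 h replicate 1, 6 h replicate 3, 12 h replicate 1 or 24 h replicate 3, or without dDAVP 3 h replicate 2 or 3, 6 h replicate 1 or 2, 12 h replicate 1, 2 or 3, or 24 h replicate 2. Fxyd2, the gamma subunit, which lowers the pump's affinity for sodium, gave 0.29 ± 0.07 (adjusted p = 0.0177) and, share-adjusted, 0.12 ± 0.06 (adjusted p = 0.611). The call for Fxyd2 was lost without dDAVP 3 h replicate 3, dDAVP 12 h replicate 3 or vehicle 24 h replicate 3, at 0.24, 0.23 and 0.23.

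**Figure D2:**
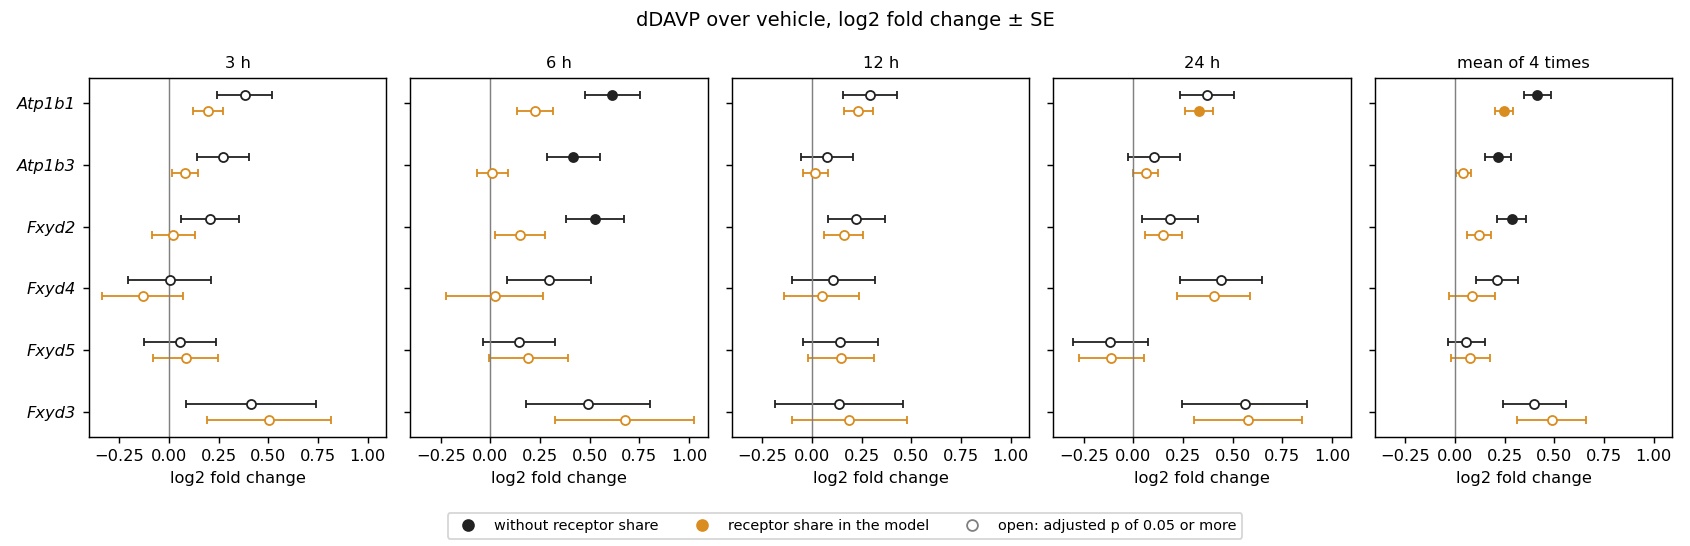
log2 fold change ± SE of dDAVP over vehicle for each subunit at 3, 6, 12 and 24 h and for the mean of the 4 times, unadjusted (black) and share-adjusted (orange); filled points passed an adjusted p of 0.05. For the mean effect Atp1b1 is filled in both models, at 0.41 and 0.25, and the orange points of Atp1b3 and Fxyd2 are open.

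At the single times the calls were few outside 6 h. At 6 h Atp1b1 (0.61 ± 0.14, adjusted p = 0.0139), Fxyd2 (0.53 ± 0.15, 0.019) and Atp1b3 (0.42 ± 0.13, 0.024) were called higher by edgeR, 3 of 6, when 38.1% of all genes were called. None of these 3 was called at 6 h in the share-adjusted fit, where they were 0.22, 0.15 and 0.01 and 0.336% of all genes were called, or in limma on TPM. All 3 calls ended without vehicle 6 h replicate 1, vehicle 6 h replicate 2, dDAVP 6 h replicate 1 or dDAVP 6 h replicate 2, and without dDAVP 6 h replicate 3 the count was 1. Where a call ended, Atp1b1 stood at 0.51 to 0.60, Fxyd2 at 0.40 to 0.52 and Atp1b3 at 0.30 to 0.41. The 6 h call for Atp1b3 was also lost with RLE scaling, at 0.53 (adjusted p = 0.0511), with no filter, at 0.43 (adjusted p = 0.0736), and with the 5 CPM filter, at 0.09 (adjusted p = 0.208), as was that for Fxyd2 with the 5 CPM filter, at 0.21 (adjusted p = 0.165). At 3 h 0 of 6 were called by edgeR, 2 had an unadjusted p under 0.05, and DESeq2 and limma called 0; 0.484% of all genes were called. The 12 h count was also 0, with 1 unadjusted p under 0.05, 0 by DESeq2 and limma, and 0.0773% of all genes called. At 24 h edgeR called 0, with 2 unadjusted p under 0.05, 0 by DESeq2 and limma, and 0.0841% of all genes called. Share-adjusted, Atp1b1 was called at 24 h, at 0.33 ± 0.07 (adjusted p = 0.0322), where 0.346% of all genes were called. For a change of the dDAVP effect over time edgeR called 0 of 6, none had an unadjusted p under 0.05 and DESeq2 called 0, with 0.343% of all genes called. The contrast of the 24 h effect with the 3 h effect likewise gave 0 by all of these, with 0.0202% of all genes called.

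Because both beta transcripts come from the same library, its scaling cancels in their ratio. The Atp1b1 share of the summed Atp1b1 and Atp1b3 TPM was higher with dDAVP at every time. At 3 h it was 59.0%, 59.1% and 60.7% in dDAVP and 58.4%, 57.3% and 57.3% in vehicle. At 6 h the shares were 61.0%, 61.6% and 61.3% in dDAVP and 58.1%, 57.3% and 58.6% in vehicle. By 12 h they were 67.9%, 67.5% and 65.7% in dDAVP and 62.5%, 63.4% and 64.8% in vehicle. No dDAVP library overlapped a vehicle library at any of these times. At 24 h the share was 65.4%, 67.0% and 66.0% in dDAVP and 63.5%, 60.3% and 61.7% in vehicle, again with no overlap. Within 1 time, 3 libraries against 3 allow no exact two-sided permutation p below 0.1, and each time gave 0.1. Permuted within times over all 24 libraries, the means of 63.5% in dDAVP and 60.3% in vehicle differed by 3.25 points, exact p = 1.25e-05, the smallest that 160000 regroupings can give, and 5e-05 adjusted over 4 measures. The difference lay between 3.06 and 3.46 points when any 1 library was left out. The vehicle 12 h libraries spanned receptor shares of 0.172% to 0.725%, and their Atp1b1 shares spanned 62.5% to 64.8%. The vehicle 24 h libraries spanned receptor shares of only 0.175% to 0.292%, and Atp1b1 shares of 60.3% to 63.5%. Whether the Atp1b1 share depends on the receptor share was not tested, and no share-adjusted form of the permutation test was run.

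**Figure D3:**
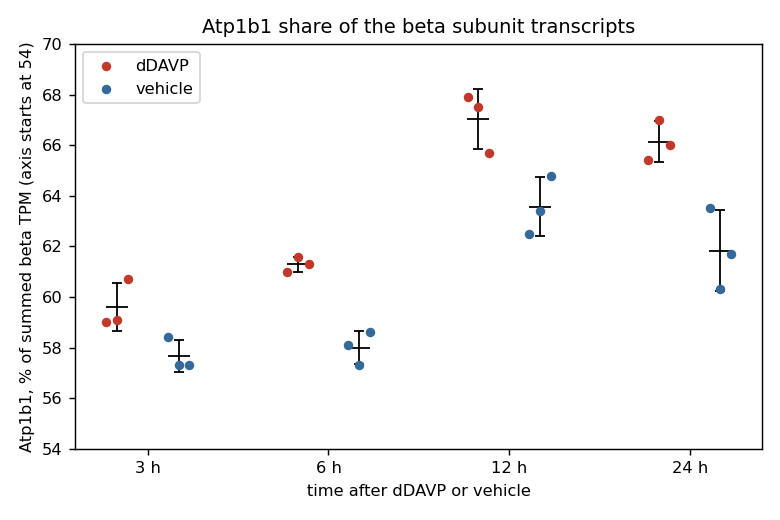
Atp1b1 as a percentage of summed Atp1b1 and Atp1b3 TPM (vertical axis from 54) in each library at 3, 6, 12 and 24 h, dDAVP red and vehicle blue, with the mean ± SD of 3. The dDAVP points lie above the vehicle points at each time, by 1.9, 3.35, 3.47 and 4.29 points on average, and both treatments are higher at 12 and 24 h than at 3 and 6 h.

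Summed, the beta transcripts averaged 120 TPM in dDAVP and 112 TPM in vehicle over the 4 times, a difference that did not pass the exact permutation test (adjusted p = 0.0809 over 4 measures). The sum was 122 TPM in dDAVP and 121 TPM in vehicle at 3 h, 113 TPM in dDAVP and 111 TPM in vehicle at 6 h, and 120 TPM in dDAVP and 109 TPM in vehicle at 12 h. At 24 h it was 124 ± 5.42 TPM in dDAVP and 107 ± 7.52 TPM in vehicle (SD, n = 3 each). In bulk libraries, fewer cells of a type and less RNA per cell cannot be told apart.

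The FXYD genes other than Fxyd2 were not called for dDAVP at any time or on average in the unadjusted or share-adjusted fit. Some alternative settings did call them on the mean effect, as given below. Fxyd4, known as corticosteroid hormone-induced factor (CHIF), raises the pump's sodium affinity in the collecting duct. In TPM it was lower with dDAVP at 3 h, at 19.7, 22.8 and 23.9 in dDAVP and 26.8, 26.0 and 27.7 in vehicle, with no overlap. In CPM these libraries overlapped, and at 6 h the CPM were higher with dDAVP (15.7, 15.8 and 16.1, against 11.7, 12.3 and 14.6 in vehicle) while the TPM were lower (18.7, 15.7 and 17.6, against 19.3, 22.6 and 21.9). The direction for Fxyd4 at early times thus depended on the unit. At 24 h Fxyd4 stood at 21.0, 37.8 and 32.0 TPM in dDAVP and 23.1, 20.8 and 23.4 TPM in vehicle, and dDAVP replicate 1 lay among the vehicle libraries. Fxyd5, known as dysadherin and linked to pump kinetics and cell adhesion, averaged 4.73 ± 0.761 TPM in dDAVP and 4.96 ± 0.833 TPM in vehicle at 24 h, with a mean effect of 0.06 ± 0.09. At 6 h its TPM were lower with dDAVP without overlap (6.93, 5.81 and 6.79, against 8.31, 7.57 and 8.86 in vehicle), whereas its CPM overlapped, at 7.75 to 8.5 in dDAVP and 6.58 to 8.03 in vehicle. Fxyd3, an epithelial FXYD protein, averaged 2.59 ± 0.892 TPM in dDAVP and 1.94 ± 0.505 TPM in vehicle at 24 h, and its mean effect of 0.40 ± 0.16 gave an adjusted p of 0.0539. Fxyd3 passed the threshold on the mean effect in DESeq2, at 0.48 (adjusted p = 0.0384), and in edgeR with RLE scaling, at 0.48 (adjusted p = 0.0436). It also passed in edgeR with a replicate block, at 0.40 (adjusted p = 0.0425). The same held without vehicle 12 h replicate 3, at 0.50, or vehicle 24 h replicate 1, at 0.46. Without vehicle 12 h replicate 3, 5 of the 6 subunits were called on the mean effect, so Fxyd4 or Fxyd5 was among them.

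Over time, in the unadjusted and share-adjusted fits, Fxyd2 was the only subunit called at 24 h over 3 h in both arms. By edgeR, Fxyd5 was called in neither, at -0.43 ± 0.186 in dDAVP (adjusted p = 0.19) and -0.259 ± 0.185 in vehicle (adjusted p = 0.237). Receptor share did not overlap between 24 h and 3 h in either arm. Fxyd2 rose between 3 and 24 h in both arms. In dDAVP libraries it was 60.0, 66.7 and 63.8 TPM at 24 h and 36.4, 36.3 and 39.1 TPM at 3 h. In vehicle libraries it was 67.7, 51.1 and 53.7 TPM at 24 h and 41.2, 43.5 and 38.4 TPM at 3 h. All 24 h libraries exceeded all 3 h libraries in both arms. The log2 fold change was 0.90 ± 0.15 in dDAVP (adjusted p = 0.00124) and 0.92 ± 0.15 in vehicle (adjusted p = 0.000666), and share-adjusted 0.68 ± 0.11 (adjusted p = 0.000373) and 0.55 ± 0.13 (adjusted p = 0.0341). Over genes of 5 CPM or more, the median log2 change at 24 h over 3 h was 0.13 in dDAVP and 0.31 in vehicle. Share-adjusted, these medians were -0.03 and 0.02. In dDAVP 1 of 6 subunits was called, against 1.3% of all genes, and share-adjusted 2 of 6 (Fxyd2 and Atp1b3, at -0.27 ± 0.07), against 3.97%. In vehicle 2 of 6 were called, against 38% of all genes, and share-adjusted 1 of 6, against 0.699%. The second edgeR call in vehicle was Atp1b1, at 0.38 ± 0.14 unadjusted and 0.01 share-adjusted. In TPM its vehicle mean was 66.3 at 24 h and 69.9 at 3 h. Limma on log2(TPM + 1) called 3 of 6 in vehicle, and Atp1b1 was not among them, at -0.08 (adjusted p = 0.465). Its call was lost, at 0.30 to 0.41, without vehicle 3 h replicate 1 or 2 or any vehicle 24 h replicate, and with RLE scaling, at 0.53 (adjusted p = 0.0504).

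**Figure D4:**
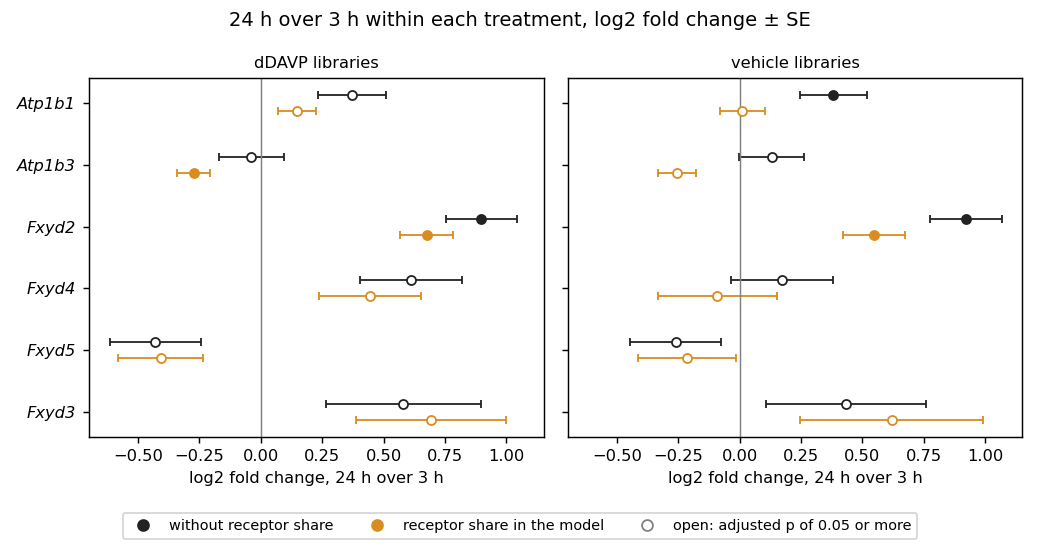
log2 fold change ± SE of 24 h over 3 h for each subunit, in dDAVP (left) and vehicle (right) libraries, unadjusted (black) and share-adjusted (orange); filled points passed an adjusted p of 0.05. Fxyd2 is filled in both models and both arms, at 0.90 and 0.68 in dDAVP and 0.92 and 0.55 in vehicle.

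Averaged over treatments, the step at 12 h over 6 h, a comparison chosen after the values were seen, held calls for Fxyd2 and Fxyd5. There 2 of 6 were called, against 2.31% of all genes, and share-adjusted 3 of 6, against 9.38%. Fxyd5 fell, at 4.93, 5.0 and 5.66 TPM in dDAVP and 5.79, 3.56 and 6.08 TPM in vehicle at 12 h, against 6.93, 5.81 and 6.79 TPM in dDAVP and 8.31, 7.57 and 8.86 TPM in vehicle at 6 h. In each arm the 12 h libraries lay below the 6 h libraries without overlap. The log2 fold change was -0.64 ± 0.13 (adjusted p = 0.0068), and -0.64 ± 0.11 share-adjusted (adjusted p = 0.000296). Fxyd2 rose by 0.44 ± 0.10 over the same step (adjusted p = 0.0161), and by 0.49 ± 0.07 share-adjusted (adjusted p = 1.63e-05); the unadjusted call was lost, at 0.40 to 0.43, without vehicle 6 h replicate 1 or 2, dDAVP 6 h replicate 1, or replicate 3 of either arm at 12 h. The Fxyd2 call was also lost with RLE scaling, at 0.39 (adjusted p = 0.349), in DESeq2, at 0.39 (adjusted p = 0.152), and with no filter, at 0.44 (adjusted p = 0.106). For Atp1b3 the step was -0.34 ± 0.09 (adjusted p = 0.0509), and -0.29 ± 0.04 share-adjusted (adjusted p = 6.54e-05), and it was called at -0.41 without vehicle 12 h replicate 2. The steps at 6 h over 3 h and 24 h over 12 h called 0 of 6 by edgeR, with 3 and 1 unadjusted p under 0.05 and 0 by DESeq2, against 0% and 12.4% of all genes.

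For 24 h over 3 h across treatments, 4 of 6 were called, against 49.3% of all genes, and share-adjusted 2 of 6, against 3.12%. Fxyd2 gave 0.91 ± 0.10 (adjusted p = 3.17e-06), and 0.61 ± 0.09 share-adjusted (adjusted p = 0.000212). Fxyd5 gave -0.34 ± 0.13 (adjusted p = 0.0339), and -0.31 ± 0.15 share-adjusted (adjusted p = 0.337); without any vehicle 3 h replicate, dDAVP 3 h replicate 1 or 2, or replicate 1 or 2 of either arm at 24 h its call was lost, at -0.37 to -0.22. The Fxyd5 call was also lost with RLE scaling, at -0.22 (adjusted p = 0.187), in DESeq2, at -0.22 (adjusted p = 0.201), and with no filter, at -0.29 (adjusted p = 0.139). Atp1b1 and Fxyd4 were called at 0.38 and 0.39, and neither share-adjusted, at 0.08 and 0.18. The Fxyd4 call was lost, at 0.30 to 0.41, without vehicle 3 h replicate 1 or 2, dDAVP 3 h replicate 1, vehicle 24 h replicate 1 or 2, or dDAVP 24 h replicate 2. Atp1b3 was 0.05 unadjusted and -0.26 ± 0.06 share-adjusted (adjusted p = 0.00953); its TPM at 24 h was 41.9 ± 0.895 in dDAVP and 40.8 ± 1.57 in vehicle, against 49.4 ± 2.2 in dDAVP and 51.3 ± 1.89 in vehicle at 3 h (SD, n = 3 each).

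The make-up of the FXYD transcripts differed between times. At 24 h Fxyd2 made up 63.3 ± 5.32% of summed FXYD TPM in dDAVP and 66.0 ± 3.27% in vehicle, and 54.2 ± 1.87% in dDAVP and 53.1 ± 1.79% in vehicle at 3 h (SD, n = 3 each). Fxyd5 made up 4.68 ± 0.461% in dDAVP and 5.74 ± 1.03% in vehicle at 24 h, and 10.6 ± 2.84% in dDAVP and 10.3 ± 0.469% in vehicle at 3 h. Averaged over treatments the Fxyd5 share was 5.21% at 24 h and 10.5% at 3 h, a difference of -5.27 points (exact permutation p = 0.005, the smallest that 400 regroupings can give; 0.01 adjusted over 4 measures). Between treatments the Fxyd5 share differed by -0.72 points, 7.67% in dDAVP and 8.39% in vehicle, exact permutation p = 0.162. The Atp1b1 share of beta TPM was 64.0% at 24 h and 58.6% at 3 h, a difference of 5.36 points (exact permutation p = 0.005, adjusted 0.01). Summed FXYD TPM was 94.0 at 24 h and 73.0 at 3 h, and summed beta TPM 115 and 122.

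**Figure D5:**
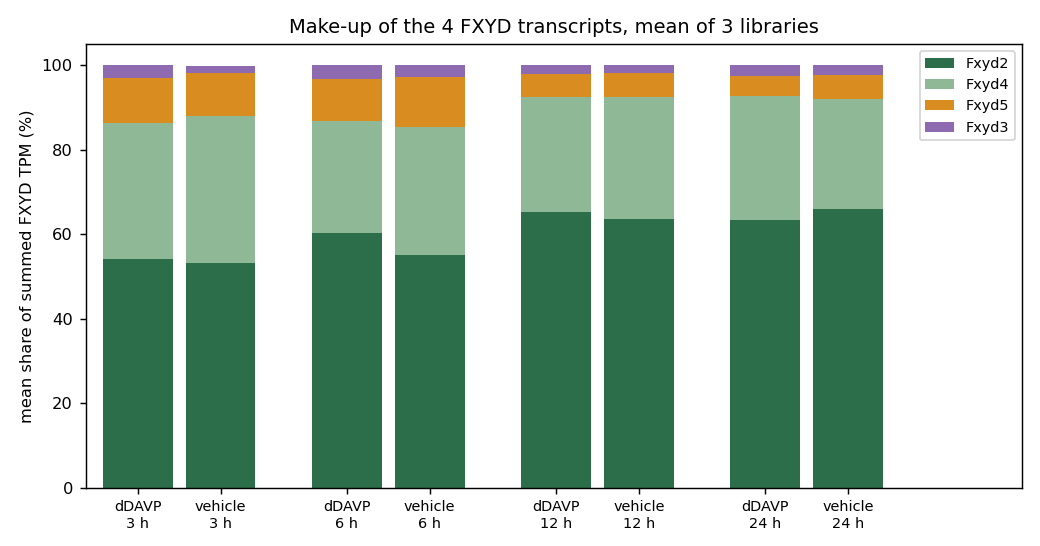
Mean share (%) of Fxyd2, Fxyd4, Fxyd5 and Fxyd3 in summed FXYD TPM, 3 libraries a bar, dDAVP left of vehicle at 3, 6, 12 and 24 h. The Fxyd5 segment is narrower at 12 and 24 h (5.46% and 4.68% in dDAVP, 5.72% and 5.74% in vehicle) than at 3 and 6 h.

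The genes nearest to each subunit in profile over the 24 libraries were described by Pearson's r of log2 CPM among 10354 protein-coding genes. Atp1b1 lay nearest to Ppp1cb (0.978), a protein phosphatase subunit, Atp1b3 to Dnaja1 (0.984), a chaperone, and Fxyd2 to Ckmt1 (0.965), a mitochondrial creatine kinase. Fxyd5 lay nearest to Ctsw (0.886), Fosl1 (0.864), an AP-1 subunit, and Ereg (0.86), an EGF receptor ligand, Fxyd4 to Adh1 (0.831), and Fxyd3 to Sec24a (0.7). Depth and receptor share varied between libraries, and the receptor share was not taken out of these profiles. The subunits' own r with the log2 receptor share was -0.875 for Atp1b1, -0.761 for Atp1b3 and -0.743 for Fxyd2. It was -0.517 for Fxyd4, -0.407 for Fxyd3 and 0.103 for Fxyd5.

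Around the subunits, Nme7 overlaps the end of Atp1b1 by 617 bases on the opposite strand, and Lgi4 overlaps Fxyd3 by 2764 bases. Whether counting used strand is not given in the sources used here, so reads from the overlapping parts cannot be told apart. Nme7 had a mean dDAVP effect of 0.21 ± 0.06 (adjusted p = 0.0237), and 0.04 share-adjusted (adjusted p = 0.839). Of 10 neighbouring genes outside the pump families 4 were called higher on the mean effect, against 33.1% of all genes, and none share-adjusted, against 1.23%.

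Of 23 pump regulators and assembly partners on a fixed list, 10 were called higher and 3 lower on the mean dDAVP effect, against 33.1% of all genes called, with a list median of 0.19. Share-adjusted, 3 were called higher and none lower, against 1.23% of all genes. These were Add3, the gamma adducin of the membrane skeleton, at 0.85, Sik1, a salt-inducible kinase, at 0.63, and Nedd4l, a ubiquitin ligase that restrains the epithelial sodium channel, at 0.23. Among 15 sodium and potassium transport partners none was called higher and 5 lower on the mean effect, the channel subunit Scnn1g among them at -0.65 ± 0.09 (adjusted p = 8.94e-05). The list median was -0.11, and 33.1% of all genes were called. Share-adjusted, none was called higher and 2 lower, against 1.23% of all genes. These were Scnn1g, at -0.76 (adjusted p = 1.18e-05), and Scnn1a, another subunit of that channel, at -0.27 (adjusted p = 0.000845). Of 12 other pump subunits and relatives on a fixed list, 10 were tested. On the mean effect 2 were called higher and none lower, against 33.1% of all genes, with a list median of -0.28. Share-adjusted, 1 was called higher, against 1.23% of all genes. Atp4a, the gastric proton pump alpha subunit, was called higher unadjusted at 0.90 ± 0.16 (adjusted p = 0.00109), on 12 to 79 counts a library. It averaged 1.22 ± 0.514 TPM in dDAVP and 0.648 ± 0.14 TPM in vehicle at 3 h, and 1.01 ± 0.138 TPM in dDAVP and 0.476 ± 0.289 TPM in vehicle at 6 h. At 12 h it averaged 0.607 ± 0.205 TPM in dDAVP and 0.668 ± 0.36 TPM in vehicle, and at 24 h 0.541 ± 0.0917 TPM in dDAVP and 0.304 ± 0.124 TPM in vehicle (SD, n = 3 each).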

How the data were processed

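RNA from 24 libraries was sequenced. Estimated counts per gene were deposited by the authors without normalization, and TPM were deposited by the authors, each column scaled to the same total. The submitters' processing notes name Salmon 0.14.10 and GRCm38.p6, and give neither settings nor strand in the sources used here. Of the columns, 0 were left out. The members and lists were chosen with earlier results of these data known.

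Estimated counts were rounded, scaled by TMM (factors 0.814 to 1.326) and tested with edgeR 4.0.16 (R 4.3.3) over all 24 libraries, 1 mean per group, quasi-likelihood test, Benjamini-Hochberg over 29743 genes kept by filterByExpr, threshold 0.05. CPM are on this scale. The share adjustment used, on a log2 scale, the percentage of each library in 1414 olfactory or vomeronasal receptor genes. Alternatives were RLE scaling, DESeq2 1.42.0, no filter, a 5 CPM filter (12269 genes), a replicate block, limma 3.58.1 on log2(TPM + 1) and log2(TPM + 0.1), fits to the compared libraries alone, 0.01 as threshold, and omission of single libraries. Contrasts averaging both treatments over time, and shares at 24 h against 3 h, were added after seeing the data. TPM shares were tested by exact two-sided permutation within times or treatments. Names came from GENCODE M21 (54346 of 54432 identifiers). Some genes of the fixed lists are not reported here. All 6 subunits were named, with some of the list genes called and the nearest profile of each subunit. For Fxyd5 the 3 nearest were named. Chi-square per gene between replicates was 2.51 to 35.78, above sampling noise. The fits were also run on simulated counts in which the receptor share was not made to vary between libraries. That run therefore does not bear on calls that depend on the receptor share. Figures used matplotlib 3.10.9.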

Additional observations from a re-analysis of the deposited data

How the results depend on the processing

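The Atp1b1 mean dDAVP effect kept its direction and call under all 10 alternatives (0.16 to 0.49) and without any 1 library (0.37 to 0.45), as did Fxyd2 at 24 h over 3 h in both arms and Fxyd5 at 12 h over 6 h. Of the 6 subunits, those called at 6 h (3) became 0 at a threshold of 0.01, with the receptor share, with it and the 5 CPM filter, and by limma on log2(TPM + 1) or log2(TPM + 0.1), and 1 with the 5 CPM filter. At 12 h 0 became 1 with the receptor share and 5 CPM filter; at 24 h 0 became 1 with either or both. For the mean effect 3 became 1 at 0.01, with the receptor share (with or without the filter) and by both limma fits. Vehicle at 24 h over 3 h had 1 in place of 2 at 0.01, with the receptor share, with RLE and with only the libraries compared. With the 5 CPM filter and by both limma fits it had 3, and Atp1b1 was not among them. In dDAVP 1 became 2 with the receptor share, and 3 with the 5 CPM filter, with both and with only the libraries compared. Across treatments 4 became 2 at 0.01 and with the receptor share, with or without the filter. At 12 h over 6 h 2 became 1 at 0.01, with RLE, with no filter and in DESeq2. Atp1b3 reversed for the 6 h effect (-0.018 with receptor share and 5 CPM filter, -0.105 and -0.107 by limma), the mean effect (-0.035 and -0.036 by limma), dDAVP 24 h over 3 h (0.072 with RLE and DESeq2) and 24 h over 3 h across treatments (-0.264, -0.168 and -0.254 with receptor share, filter and both; -0.278 and -0.284 by limma). Atp1b1 in vehicle at 24 h over 3 h reversed to -0.008 with receptor share and filter and to -0.078 and -0.079 by limma. The cause was not tested. Without 1 library, called subunits ranged from 0 to 2 at 6 h, 1 to 5 for the mean effect, 1 to 2 in vehicle over time, 2 to 4 across treatments, 1 to 3 at 12 h over 6 h, and 0 to 3 at 24 h over 12 h, where 3 were called without vehicle 12 h replicate 2. The mean effect gave 1 without dDAVP 3 h replicate 3, dDAVP 12 h replicate 3 or vehicle 24 h replicate 3, and 5 without vehicle 12 h replicate 3. Atp1b3 ranged from -0.13 to 0.045 in dDAVP over time and from -0.005 to 0.136 across treatments. With CPM in place of TPM the Fxyd5 share differed by -1.44 points between treatments, the summed beta by 107 CPM and the summed FXYD by 10.4 CPM. Summed beta at 24 h minus 3 h reversed, from -6.33 in TPM to 81.1 in CPM. Without 1 library the summed beta difference between treatments ranged from 5.88 to 9.6 TPM, and that of the Fxyd5 share from -1.04 to -0.34 points. Replicate numbers showed no consistent pairing of the libraries. Same-numbered pairs had correlations of -0.662 to 0.762, with 36 of 84 above 0.1, and 10 of 24 libraries correlated best with their own number. The labels do not say whether same-numbered libraries shared a culture or batch, and these correlations cannot show it. With the replicate block the subunits called were 0, 3, 0 and 0 at 3, 6, 12 and 24 h, against 0, 3, 0 and 0 without it, and 4 against 3 for the mean effect, with Fxyd3 added at 0.40; the 24 h minus 3 h differences of 5.36 points (Atp1b1 share), -5.27 points (Fxyd5 share) and 21.0 TPM (summed FXYD) lost their calls under it at the same size. For both shares the blocked permutation p of 0.0312 is the smallest that regroupings within pairs allow. It became 0.0625 after adjustment, a value that depends also on the p of the other measures. The lost calls of the shares therefore show no weakening of their differences. Over all genes, the 6 h effect gave 2034 calls with the 5 CPM filter and 11320 without, and the mean effect 3285 and 9854. At 15 to 45 counts, Fxyd3 limits what can be seen of it.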
